A study of Mus musculus with 20 samples.

Results

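The 2 mature arms of the miRNA miR-338, miR-338-3p and miR-338-5p, were followed across 4 stages of chemically induced skin tumour formation in the mouse. They were chosen by name from the deposited count table, as 2 of its 1137 mature miRNAs and of its 2127 small RNA features, because both were lower in tumours than in skin. The levels in tumours and skin are therefore given below as a description, with no test. The series holds 20 small RNA libraries of FVB/N mouse skin, 5 in each group, sequenced on the SOLiD instrument. The groups are healthy skin that received the solvent acetone and 3 tissues treated with DMBA/PMA: hyperplastic skin, papilloma and cutaneous squamous cell carcinoma (cSCC). DMBA is a carcinogen that mutates DNA, and PMA is a phorbol ester that drives keratinocytes to divide. A papilloma is a benign outgrowth of the epidermis and a cSCC is an invasive tumour of keratinocytes. The labels give no dose, time or animal age and do not tie libraries to separate mice, so each p-value reflects variation among these libraries, which may be partly technical. Treatment differs between healthy skin and the other 3 groups, so that treatment and lesion cannot be told apart in comparisons with healthy skin. Dose, time and age may also differ among the 3 treated groups, so that their comparisons need not differ in lesion alone.

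A miRNA gene is transcribed into a hairpin, which is cut into a short duplex of a 5p and a 3p strand. A strand loaded into an Argonaute protein pairs, mainly through its seed near the 5′ end, with messenger RNAs and lowers their output. miR-338 lies inside the gene Aatk, which encodes a kinase with a known role in neurons, and miR-338-3p is best known from oligodendrocytes, where it acts with miR-219 in the maturation of myelin-forming cells. In epithelial tumours miR-338-3p has been studied as a growth-restraining miRNA.

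Both arms are printed because the results turn on how their levels compare. In the hairpin the capitals mark the arms, and in each mature sequence they mark the seed, bases 2 to 8. The sequences are from RefSeq with the build GRCm38.p6, and the last is the mature strand made from the opposite DNA strand.
miR-338 hairpin: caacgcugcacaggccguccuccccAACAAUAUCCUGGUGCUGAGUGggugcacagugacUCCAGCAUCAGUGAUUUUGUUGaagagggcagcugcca
mmu-miR-338-5p: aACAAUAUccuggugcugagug
mmu-miR-338-3p: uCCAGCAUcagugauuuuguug
mmu-miR-3065-5p: uCAACAAAaucacugaugcugg

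Each arm has 22 bases. The 5p arm spans bases 26 to 47 of the 98-base hairpin and the 3p arm bases 61 to 82, with 13 bases between them, and RNAfold predicted 18 base pairs between the arms. The seeds, ACAAUAU and CCAGCAU, differ, and none of the other entries among 1738 mature mouse miRNAs in RefSeq shares bases 2 to 8 or bases 2 to 7 with either arm. Of the 1137 miRNA names in the count table, 884 were found in RefSeq, both arms among them. Neither arm thus has a seed family whose members could be followed beside it.

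In the mm9 coordinates of the count table, miR-338-3p lies at chr11:119876094-119876117 and miR-338-5p at chr11:119876129-119876152. In GRCm38.p6 the hairpin lies at chr11:120014765-120014862 on the minus strand. GENCODE M21 places it inside Aatk, at chr11:120007313-120047167 on the same strand. It falls in intron 7 of the 3 protein-coding transcripts Aatk-201, Aatk-202 and Aatk-203, each with 14 exons, and none of the 6 Aatk transcripts that span it has an exon over it. The opposite strand carries the hairpin of miR-3065. A stretch of 21 of the 22 bases of miR-3065-5p is complementary to miR-338-3p.

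Depth differed between skin and tumours. Total mature miRNA counts were 2884177 to 4921719 in healthy skin, 3142228 to 6904298 in hyperplastic skin, 1060615 to 2370313 in papillomas and 1614803 to 2903657 in cSCC. Levels below are CPM, the count relative to a library's total miRNA count, scaled by TMM factors computed over 850 tested miRNAs. The scaling matters for tumours against skin: with factors computed from the 294 miRNAs with a mean of at least 50 CPM, chosen after seeing the data, the median log2 change of all tested miRNAs moved by 0.68 for papilloma and 0.72 for cSCC against healthy skin, but by 0.04 for cSCC against papilloma. In bulk tissue, fewer cells of a type and less RNA per cell cannot be told apart.

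miR-338-3p was the more abundant arm and was lower in every tumour than in every skin sample. In healthy skin it stood at 879.1, 732.6, 432, 430.2 and 510.4 CPM in libraries 2, 3, 4, 5 and 7. In hyperplastic skin it stood at 302.1, 229.6, 295.8, 765.3 and 578.3 CPM in libraries 1, 2, 5, 7 and 8. With TMM, hyperplastic 7 and 8 lay within the healthy range, whereas the other 3 lay below all 5 healthy libraries. With levels per total count, without TMM, hyperplastic 1 and 5 (333.2 and 291.1 CPM) also lay above the lowest healthy library (274.1). Only hyperplastic 2 (251.7 CPM) lay below it on that scale.

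In papillomas miR-338-3p stood at 107.8, 151.3, 123.9, 144.6 and 104.9 CPM in libraries 1, 3, 4, 5 and 6. In cSCC it stood at 68.62, 67.53, 57.01, 57.71 and 69.41 CPM in libraries 1, 2, 3, 4 and 6. The 5 cSCC lay below all 5 papillomas, and the papillomas lay below all 10 skin libraries. These levels rest on 129 to 184 reads of the arm per cSCC library, 185 to 415 per papilloma and 1047 to 4051 per skin library.

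The group means of miR-338-3p were 596.9 ± 200 CPM in healthy skin, 434.2 ± 229 in hyperplastic skin, 126.5 ± 21 in papillomas and 64.06 ± 6.16 in cSCC (SD, n = 5 each). Among the 1137 mature miRNAs its mean ranked 114th in healthy skin and 258th in cSCC. The coefficient of variation was 33.6% and 52.6% in healthy and hyperplastic skin, 16.6% in papillomas and 9.61% in cSCC. With levels per total count, without TMM, it was 18.6% in papillomas and 26.2% in cSCC, so that the narrow spread in cSCC depends on the scaling. The cSCC still lay below all papillomas on that scale, at 47.33 to 87.94 against 108.0 to 181.4 CPM.

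miR-338-5p was less abundant. In healthy skin it stood at 92.47, 76.46, 69.19, 117.7 and 153.6 CPM in libraries 2, 3, 4, 5 and 7. In hyperplastic skin it stood at 36.94, 43.35, 48.61, 125.1 and 70.05 CPM in libraries 1, 2, 5, 7 and 8. As for the 3p arm with TMM, hyperplastic 7 and 8 lay within the healthy range and the other 3 below it. Hyperplastic 8 was close to the lowest healthy library. With levels per total count it lay below all healthy libraries, at 57.07 CPM against a lowest healthy level of 64.85.

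In papillomas miR-338-5p stood at 11.79, 35.08, 13.2, 14.98 and 35.72 CPM in libraries 1, 3, 4, 5 and 6. In cSCC it stood at 15.66, 17.28, 19.63, 28.18 and 48.88 CPM in libraries 1, 2, 3, 4 and 6. The coefficient of variation of this arm was 33.7% in healthy skin, 55.4% in hyperplastic skin, 54.8% in papillomas and 52.9% in cSCC. Every tumour lay below every healthy library. The tumour groups overlapped, and cSCC 6 lay above 3 hyperplastic libraries.

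The lowest 5p levels, in papillomas 1 and 4, rested on few reads. Papilloma 4 had 23 reads, for which the exact 95% Poisson interval is 14.6 to 34.5, and papilloma 1 had 28 reads (18.6 to 40.5). The 5p levels of papilloma 6, with 63 reads (48.4 to 80.6), and of cSCC 6, with 100 reads (81.4 to 121.6), were the highest of their groups. These were also the shallowest libraries of each tumour group, and the part of depth in their 5p levels was not tested. The intervals cover counting error only.

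**Figure D1:**
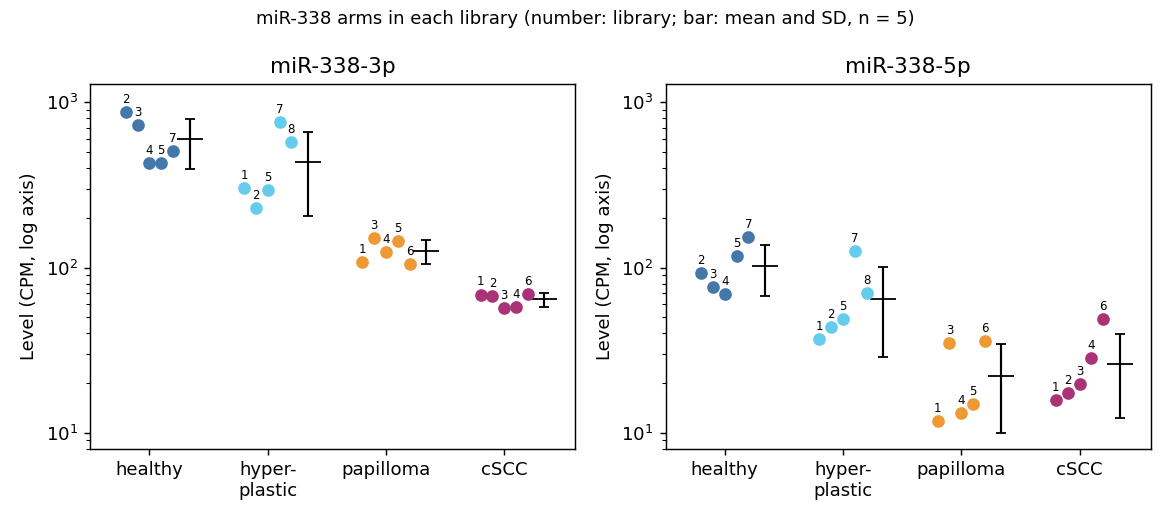
Level of miR-338-3p and miR-338-5p (CPM, log axis) in each of the 20 libraries, by group; each numbered point is a library and the bars show the group mean ± SD. The 3p arm steps down from skin to papilloma to cSCC with no overlap between papilloma and cSCC, whereas the 5p levels of papillomas and cSCC overlap.

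In papillomas compared with healthy skin, miR-338-3p was 4.71-fold lower (log2 -2.24 ± 0.31 SE, n = 5 each) and miR-338-5p 4.6-fold lower (-2.2 ± 0.41). For neither arm did the groups overlap. Of the 850 miRNAs tested with edgeR, 20.7% were called lower at an adjusted p under 0.05 in this comparison and 14.7% were lower without overlap, while the median of all was 0.4. Counting from the largest fall, the arms ranked 12th and 13th of 850. With factors from abundant miRNAs the changes were -1.57 for the 3p arm and -1.47 for the 5p arm, and 437 miRNAs were called higher and 71 lower, in place of 204 higher and 176 lower.

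In cSCC compared with the same healthy libraries, miR-338-3p was 9.31-fold lower (log2 -3.22 ± 0.32 SE) and miR-338-5p 3.94-fold lower (-1.98 ± 0.4). The 3p arm ranked 13th from the largest fall and the 5p arm 50th. Here 21.3% of miRNAs were called lower and 16.7% were lower without overlap, and the median of all was 0.35. With factors from abundant miRNAs the changes were -2.49 and -1.24, the 5p arm overlapped between the groups, and 454 miRNAs were called higher and 100 lower, in place of 223 and 181.

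Hyperplastic skin was treated with DMBA/PMA, as the tumours were, but the labels give no dose or time by which to compare them. Against hyperplastic skin, the 3p arm was 3.43-fold lower in papillomas (log2 -1.78 ± 0.3 SE) and 6.78-fold lower in cSCC (-2.76 ± 0.32), without overlap. The 5p arm was 2.93-fold lower in papillomas (-1.55 ± 0.4), without overlap, and 2.51-fold lower in cSCC (-1.33 ± 0.4), with 4 of 5 cSCC below all hyperplastic libraries. Of all tested miRNAs, 17.1% were called lower in papillomas and 20.5% in cSCC, and 12.2% and 15.6% were lower without overlap. With factors from abundant miRNAs the 3p changes were -1.15 and -2.07, and the 5p arm overlapped in both comparisons. The comparisons with tumours share their skin libraries and are not independent of each other.

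**Figure D2:**
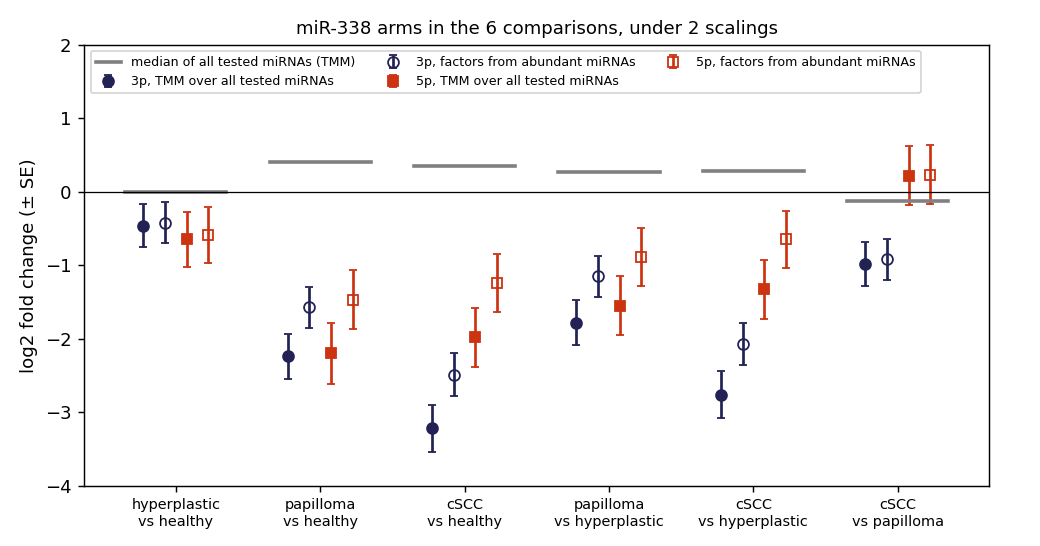
Log2 fold change ± SE of both arms in the 6 comparisons of groups (n = 5 libraries each), with TMM factors over all tested miRNAs (filled) and with factors from abundant miRNAs (open); the grey line is the median of all 850 miRNAs with TMM. Both arms are below 0 in the 4 comparisons of tumour with skin under both scalings, and only the 3p arm is below 0 in cSCC against papilloma under both.

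The comparison of hyperplastic with healthy skin asked whether the arms differed in treated skin without a tumour. Neither arm passed the test. The change was -0.46 ± 0.29 for miR-338-3p (95% interval -1.06 to 0.15, edgeR adjusted p = 0.669) and -0.65 ± 0.38 for miR-338-5p (-1.44 to 0.14, adjusted p = 0.64). With TMM, 3 of 5 hyperplastic libraries lay below all healthy ones in each case. These counts changed with levels per total count, as given above. Of all tested miRNAs 0.353% were lower without overlap. edgeR called 0 of 850 miRNAs (0.0%) in this comparison, with 75 at an unadjusted p under 0.05, and DESeq2 called 0, with 85.

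The hyperplastic libraries were split. Hyperplastic 7 and 8 were high in both arms, and they also stood apart in most of the marker lists described below. They had the highest sums of their group for smooth muscle (83560 and 74470 CPM against 36850 to 43010 in the other 3), striated muscle (55420 and 43360 against 17870 to 34160) and mesenchyme (330800 and 311800 against 156500 to 163200). The same held for endothelium (37120 and 21540 against 14830 to 17600), leukocytes (22990 and 21920 against 9809 to 14740) and neural miRNAs (386.4 and 348.3 against 289.1 to 308.6). Their melanocyte sums were the lowest, at 958 and 1247 CPM against 2496 to 2739. Their TMM factors were the lowest of the group, 0.7668 and 0.8148 against 0.9842 to 1.1033. A low factor raises every CPM of a library, and the part of scaling in these sums was not tested. With hyperplastic 7 and 8 left out, the change against healthy skin was -1.17 for the 3p arm and -1.31 for the 5p arm. Since this pair was picked for its high levels, these values are lower by construction and carry no test. Without that pair, the 3p difference between papilloma and hyperplastic skin was -1.14 in place of -1.78.

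The comparison of cSCC with papilloma asked whether the arms differed between the invasive and the benign tumour. miR-338-3p was 1.98-fold lower in cSCC (log2 -0.98 ± 0.3 SE, 95% interval -1.6 to -0.36, edgeR adjusted p = 0.0323), with 5 of 5 cSCC below all papillomas. In this comparison 4.71% of miRNAs were called lower, 4.12% were lower without overlap, and the median of all was -0.12. The 3p arm ranked 64th from the largest fall. miR-338-5p changed by 0.22 ± 0.4 (-0.6 to 1.05, adjusted p = 0.812), and the groups overlapped.

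The 3p call was close to the threshold. Leaving out any 1 of the 10 tumour libraries gave -0.95 to -0.76 with adjusted p between 0.0825 and 0.218, so the call was lost each time. Over the fits that left out 1 library of any of the 4 groups, 859 to 901 miRNAs passed the filter. With the same 850 miRNAs kept, the call held in 2 of the 10 fits that left out a tumour library. These were the fits without papilloma 6 (-1.04, edgeR adjusted p = 0.0334) and without cSCC 6 (-1.01, adjusted p = 0.0453). The others gave adjusted p up to 0.196. The call was also lost without a low-count filter (-0.88, adjusted p = 0.13), without the 5 most abundant miRNAs (-0.85, adjusted p = 0.106) and with all small RNA features (-0.95, adjusted p = 0.0926). It held with DESeq2 (adjusted p = 0.0256) and with factors from abundant miRNAs (-0.92, adjusted p = 0.0321).

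**Figure D3:**
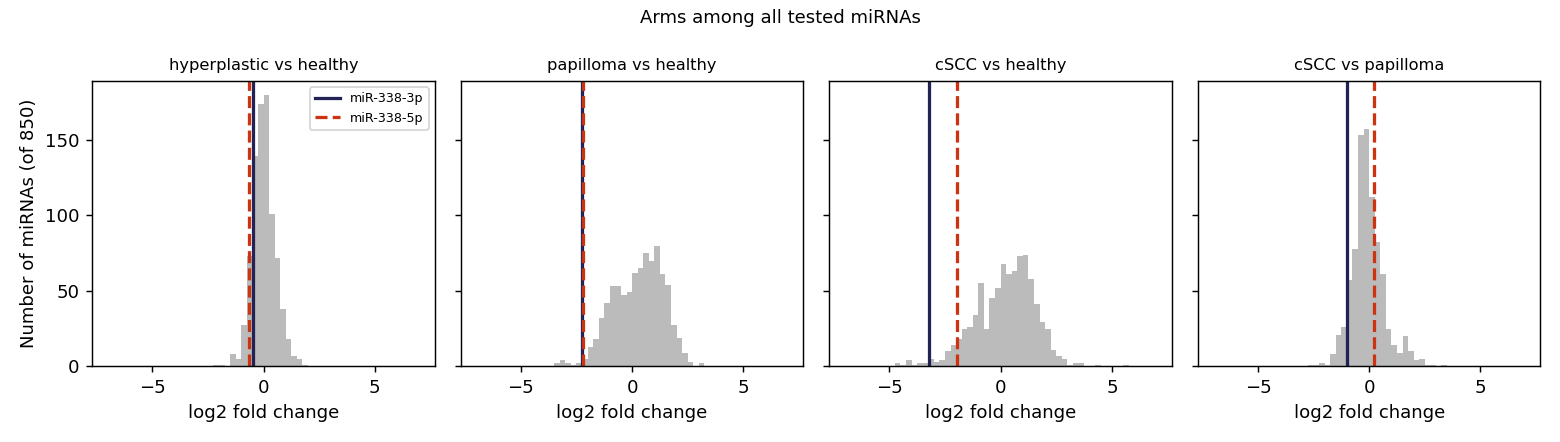
Number of miRNAs, of the 850 tested, at each log2 fold change in 4 comparisons (histograms), with vertical lines at miR-338-3p (solid) and miR-338-5p (dashed). In tumours against healthy skin both arms lie in the lower tail, and in cSCC against papilloma the 3p arm lies at -0.98 and the 5p arm at 0.22.

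The ratio of 3p to 5p reads within a library needs no scaling between libraries. It was 9.51, 9.58, 6.24, 3.66 and 3.32 in healthy libraries 2, 3, 4, 5 and 7. In hyperplastic libraries 1, 2, 5, 7 and 8 it was 8.18, 5.3, 6.09, 6.12 and 8.26. The healthy libraries covered a wider range than the hyperplastic ones, and hyperplastic 7 and 8, which were high in both arms, had ratios like the rest of their group.

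In papillomas 1, 3, 4, 5 and 6 the ratio was 9.14, 4.31, 9.39, 9.65 and 2.94. In cSCC 1, 2, 3, 4 and 6 it was 4.38, 3.91, 2.9, 2.05 and 1.42. All 5 cSCC lay below all hyperplastic libraries, and 3 of 5 lay below all papillomas. The share of other hairpins whose ratios did not overlap between cSCC and hyperplastic skin was not counted, so nothing particular to miR-338 is read from this. The 3p arm made up 58.7% of miR-338 reads in cSCC 6 (Wilson 95% interval 52.4 to 64.7) and 81.4% in cSCC 1 (75.8 to 85.9).

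The mean log2 ratio was 2.55 ± 0.73 in healthy skin, 2.74 ± 0.29 in hyperplastic skin, 2.67 ± 0.79 in papillomas and 1.44 ± 0.67 in cSCC (SD, n = 5 each). Against papillomas it was lower in cSCC by 2.36-fold (difference -1.24 ± 0.46 SE). The two-sided exact permutation test gave p = 0.0476, and 0.0952 adjusted over the 2 comparisons tested, which does not pass 0.05; the smallest p that 5 against 5 samples allow is 0.00794. Hyperplastic and healthy skin differed by 0.19 ± 0.35 (exact p = 0.603, adjusted 0.603). That the 3p arm fell in cSCC against papilloma and the 5p arm did not pass the test is thus no difference between the arms that holds after adjustment.

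Against skin, the log2 ratio differed in cSCC by -1.12 ± 0.44 from healthy and by -1.31 ± 0.33 from hyperplastic skin, and in papillomas by 0.12 ± 0.48 and -0.07 ± 0.38. Among 263 hairpins with both arms tested, shifts of this kind were common between the tumour groups. In cSCC against papilloma, 19.8% of hairpins had an exact permutation p under 0.05 before adjustment, compared with 4.56% in hyperplastic against healthy skin. With a pseudocount of 0.5, miR-338 had a difference of -1.23, the 27th in size of the 263, against a median absolute difference of 0.46. Its exact permutation p of 0.0397 became 0.217 when adjusted over the hairpins, and 0 hairpins passed.

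**Figure D4:**
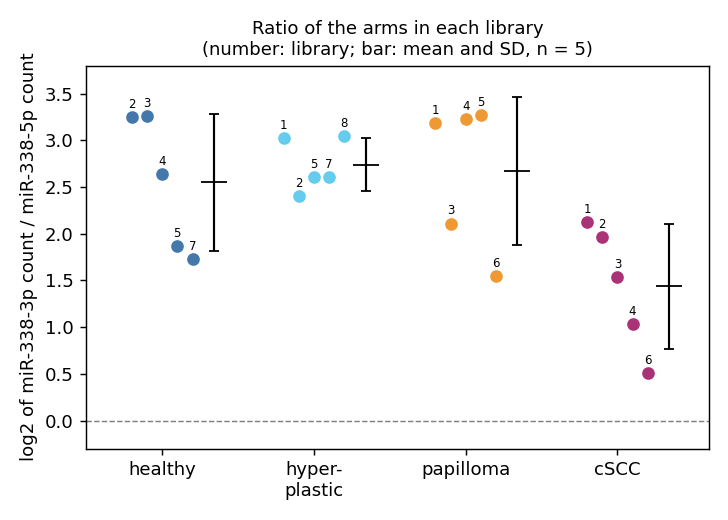
Log2 ratio of miR-338-3p to miR-338-5p counts in each library, by group; each numbered point is a library, the bars show the group mean ± SD (n = 5) and the dashed line marks equal counts. The cSCC libraries lie between 0.51 and 2.13, below the hyperplastic libraries at 2.4 to 3.05, and overlap the papillomas at 1.55 to 3.27. The share of other hairpins without overlap between cSCC and hyperplastic skin was not counted.

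The opposite strand of the locus was barely detected. miR-3065-3p had 1 to 15 reads per healthy library, 1 to 20 per hyperplastic library, 3 to 16 per papilloma and 6 to 25 per cSCC. Its mean level was 1.554 ± 1.86 CPM in healthy skin, 5.043 ± 2.21 in papillomas and 6.124 ± 3.89 in cSCC. It was called higher in papillomas (log2 1.66 ± 0.68 SE, edgeR adjusted p = 0.0494) and in cSCC (1.94 ± 0.67, adjusted p = 0.0191) than in healthy skin. In these comparisons 24.0% and 26.2% of all tested miRNAs were called higher. The papilloma call was lost in 8 of 10 fits that left out a library (adjusted p up to 0.166), and the cSCC call without healthy 4 (adjusted p = 0.0532) or cSCC 6 (adjusted p = 0.0822).

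That direction is opposite to the arms of miR-338, at a level where low counts as a class moved the same way. The 590 miRNAs that averaged no more than 20 reads held 0.0774 to 0.126% of reads in healthy libraries, 0.178 to 0.504% in papillomas and 0.132 to 0.271% in cSCC. The part of this shift in the miR-3065-3p calls was not tested. miR-3065-5p had 1 to 11 reads in every library and was not tested.

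Of 14 names listed for myelinating glia, 8 were in the table and 6 tested, both miR-338 arms among them. Of the other 4 tested, 0 were called lower and 1 was called higher in each tumour group against healthy skin. Over all tested miRNAs 20.7% were called lower and 24.0% higher in papillomas, and 21.3% and 26.2% in cSCC, so that counts over 4 members do not stand apart from the background. miR-219-5p, the partner of miR-338 in oligodendrocytes, had a mean of 10.05 CPM in healthy skin, 11.49 in hyperplastic skin, 8.671 in papillomas and 6.903 in cSCC, and did not pass the test in any comparison with healthy skin (cSCC -0.56, edgeR adjusted p = 0.314). miR-219-1-3p stood at 4.149 CPM in healthy skin and 5.534 in cSCC (0.43, adjusted p = 0.476).

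miR-138-5p, the abundant member of the list and one that many tissues express, rose in papillomas (log2 1.21 ± 0.45 SE, adjusted p = 0.0329) and in cSCC (1.32 ± 0.45, adjusted p = 0.0183), from 2136 ± 327 CPM in healthy skin to 4927 ± 2920 and 5339 ± 4440. The papilloma call was lost in 9 of 10 fits that left out a library (adjusted p up to 0.175), and the cSCC call without cSCC 3 (0.74, adjusted p = 0.151) or healthy 4 (1.18, adjusted p = 0.0533) and without a low-count filter (1.02, adjusted p = 0.0791). miR-138-1-3p, at 13.5 CPM in healthy skin and 20.37 in cSCC, did not pass the test against healthy skin but was called higher in papillomas (1.44 ± 0.44, adjusted p = 0.0132) and in cSCC (1.74 ± 0.44, adjusted p = 0.00243) than in hyperplastic skin, where it stood at 6.135 CPM. miR-219-2-3p and miR-138-2-3p had too few reads to test. A list of 13 other neural miRNAs had 2 higher and 1 lower in papillomas and 4 higher and 1 lower in cSCC, against 24.0% higher and 20.7% lower of all tested miRNAs in papillomas and 26.2% and 21.3% in cSCC.

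Markers of other cell types moved between the groups in which miR-338 differed. The counts that follow are read against the 20.7% of all tested miRNAs that were called lower and the 24.0% called higher in papillomas, and the 21.3% and 26.2% in cSCC. Of 10 striated muscle miRNAs, 7 fell in papillomas and 7 in cSCC against healthy skin, while the 2 arms of miR-499 rose from few reads. The list's sum was 22250 to 83010 CPM in healthy skin, 17870 to 55420 in hyperplastic skin, 2256 to 9871 in papillomas and 1707 to 4014 in cSCC. Its median change was -3.08 in papillomas and -3.88 in cSCC. Of 4 smooth muscle miRNAs all 4 fell in each, from sums of 53670 to 110500 CPM in healthy and 36850 to 83560 in hyperplastic skin to 16240 to 26120 in papillomas and 13920 to 24380 in cSCC. Tumour tissue thus held less of the miRNAs of both muscle types in CPM, in the same comparisons in which both miR-338 arms were low.

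Of 11 miRNAs of fibroblasts and other mesenchyme, 9 fell in papillomas and 8 in cSCC. Their sum was 220000 to 421700 CPM in healthy skin, 156500 to 330800 in hyperplastic skin, 79190 to 125300 in papillomas and 111700 to 223700 in cSCC. A single member, miR-29a-3p, was a large part of this sum. Its mean was 160300 CPM in healthy skin, 120400 in hyperplastic skin, 58150 in papillomas and 108900 in cSCC. Both endothelial arms of miR-126 fell in each tumour group, from a sum of 23610 to 43320 CPM in healthy skin and 14830 to 37120 in hyperplastic skin to 9862 to 15940 in papillomas and 8811 to 19040 in cSCC. With factors from abundant miRNAs these counts shrank to 5 and 3 of 11 for the mesenchyme, with 1 higher in cSCC, and to 1 and 0 of 2 for the endothelium. Calls of lower miRNAs shrank as a whole under that scaling, to 71 and 100 of all 850. The median change was then -0.6 and -0.35 for the mesenchyme and -0.74 and -0.46 for the endothelium. The median of all tested miRNAs was 1.09 and 1.07.

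Of 3 melanocyte miRNAs, 1 fell in papillomas and 2 in cSCC, and their sum was 688.8 to 2213 CPM in healthy skin, 958 to 2739 in hyperplastic skin, 222 to 873.8 in papillomas and 68.9 to 150.3 in cSCC. They also fell from papilloma to cSCC, 2 of 3. Of 9 keratinocyte miRNAs, 3 fell in papillomas and 5 in cSCC against healthy skin, where 20.7% and 21.3% of all tested miRNAs fell. The keratinocyte sum was 156700 to 253600 CPM in healthy skin, 176100 to 223500 in hyperplastic skin, 108200 to 211800 in papillomas and 76440 to 144700 in cSCC. With factors from abundant miRNAs, 1 keratinocyte member was higher and 0 lower in papillomas and 2 were higher and 3 lower in cSCC. Of all 850 miRNAs, 437 were then higher and 71 lower in papillomas, and 454 and 100 in cSCC. The direction of the list's calls thus depends on the scaling. Its median change was -0.34 and -0.78 with TMM (all tested miRNAs 0.4 and 0.35). With factors from abundant miRNAs it was 0.29 and 0.01 (all 1.09 and 1.07), below the median of all under both scalings. The sum of these markers of the epidermis was high in every library of this skin series. Its most abundant members were miR-205-5p and miR-203-3p. Other members were far lower, such as miR-200c-3p, down to 44.29 CPM in cSCC.

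Of 10 leukocyte miRNAs, 1 was higher and 2 lower in papillomas, and 2 were higher and 2 lower in cSCC, near or below the shares over all tested miRNAs (24.0% higher and 20.7% lower in papillomas, 26.2% and 21.3% in cSCC). Their sum was 18860 to 36080 CPM in healthy skin, 9809 to 22990 in hyperplastic skin, 15090 to 60790 in papillomas and 47840 to 109900 in cSCC. The highest sums of the tumour groups were in papilloma 6 and cSCC 6, the libraries with the highest 5p levels. Most of these sums was miR-223-3p, at 57740 of 60790 CPM in papilloma 6 and 104200 of 109900 in cSCC 6. miR-142-5p was also highest in papilloma 6 and cSCC 6. In contrast, miR-142-3p and miR-150-5p were highest in papilloma 3 and cSCC 4. No list had a member at 0 in every library of a group. The part of any of these cell types in the miR-338 levels was not tested.

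Between cSCC and papilloma, where the 3p arm was called lower, 4.71% of all tested miRNAs were called lower and 6.82% higher. Of the 3 melanocyte miRNAs 2 fell, miR-204-5p (log2 -2.29 ± 0.31 SE, edgeR adjusted p = 9.39e-05) and miR-211-5p (-2.52 ± 0.61, adjusted p = 0.00697), close relatives whose reads may have been shared. Of the 10 striated muscle miRNAs 1 fell, miR-133a-3p (log2 -1.36 ± 0.41 SE, edgeR adjusted p = 0.0314, lost in all 10 fits that left out a library). Of the keratinocyte miRNAs 2 of 9 fell, miR-203-3p (-1.59 ± 0.26, adjusted p = 0.000279) and its partner arm. None of the 4 smooth muscle or 2 endothelial miRNAs was called, 1 of 11 mesenchymal miRNAs rose, and 3 of 10 leukocyte miRNAs rose while 1 fell. Of 6 tested miRNAs of the glia list 1 was lower, miR-338-3p itself, and of the 13 neural miRNAs 0 were called. Between the 2 skin groups no member of any list was called.

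Across the 20 libraries the arms rose and fell together, with Pearson r = 0.807 and Spearman rho = 0.776 of log2 CPM. Most of this lay between groups: with the group means removed r was 0.38. Within hyperplastic skin r was 0.922, with hyperplastic 7 and 8 high in both arms, and it was -0.219 in healthy skin, 0.124 in papillomas and 0.095 in cSCC (n = 5 each). These values are descriptions, since libraries of a group share treatment and lesion.

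The miRNAs whose levels were most like each arm were taken from 293 with a mean of at least 50 CPM. For miR-338-3p the 5 highest correlations over the 20 libraries were those of miR-30b-5p (r = 0.965), miR-101b-3p (0.965), miR-10b-5p (0.964), miR-101a-3p (0.963) and miR-133a-3p (0.963). These values include the difference between tumours and skin for which the arms were chosen. The mean correlations within groups were lower, from 0.299 for miR-133a-3p to 0.589 for miR-101b-3p. miR-133a-3p is a miRNA of striated muscle. miR-101a-3p and miR-101b-3p are close relatives whose reads may have been split or shared, so they may not be separate cases. miR-101b-3p stood at 1295 to 2842 CPM in healthy skin, 880.4 to 2350 in hyperplastic skin, 559 to 835.5 in papillomas and 233.9 to 435.2 in cSCC, with hyperplastic 7 and 8 highest in their group as for miR-338-3p. Within groups the 3 highest mean correlations were those of miR-362-3p (0.733), miR-329-3p (0.676) and miR-362-5p (0.63).

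For miR-338-5p the 5 highest were miR-145-5p (r = 0.88), a miRNA of smooth muscle, miR-664-3p (0.878), miR-425-3p (0.878), miR-26b-5p (0.876) and miR-1839-3p (0.869). No miRNA was among the 5 highest for both arms. Within groups the order changed, and the 3 highest were miR-142-5p (0.884), miR-139-5p (0.736) and miR-150-5p (0.693). miR-142-5p and miR-150-5p are miRNAs of blood cells. These are the highest of 293 candidates over 5 libraries a group.

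miR-142-5p stood at 1180, 947.8, 2057, 2982 and 3034 CPM in cSCC 1, 2, 3, 4 and 6, and in cSCC 6 both it and miR-338-5p were highest. In papillomas 1, 3, 4, 5 and 6 it stood at 425, 694.7, 570.3, 660.9 and 904.3 CPM, again highest in papilloma 6. Over all 20 libraries, in contrast, its correlation with miR-338-5p was only 0.296. The levels of miR-142-5p were 674 to 2093 CPM in healthy and 436 to 1032 in hyperplastic skin. The other arm of its hairpin, miR-142-3p, was not among the 3 highest within groups. It was highest in healthy 2, hyperplastic 8, papilloma 3 and cSCC 4 (804.4 CPM, against 790.4 in cSCC 6). miR-338-5p was highest in healthy 7, hyperplastic 7, papilloma 6 and cSCC 6.

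**Figure D5:**
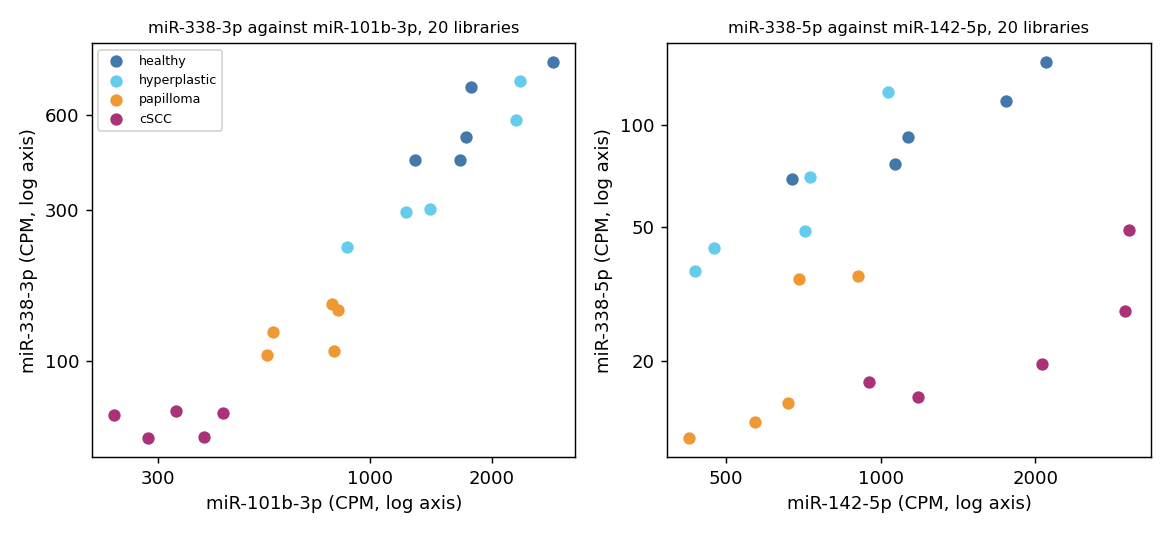
Left, miR-338-3p against miR-101b-3p; right, miR-338-5p against miR-142-5p (CPM, log axes; each point is a library, coloured by group). On the left the groups lie along a line (r = 0.965 over 20 libraries, mean within groups 0.589). On the right the points rise within each group while the groups are offset (r = 0.296 over 20 libraries, mean within groups 0.884).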

How the data were processed

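RNA of 20 mouse skin samples was made into small RNA libraries with a NEBNext set and size-selected on gels, per the labels' protocols. The deposited table holds counts, whole numbers of reads per feature and library, not normalized by the authors. The build was mm9, per the submitters' processing notes; which aligner and counter were used, and how reads with several matches were handled, is not given in the sources used here. No feature has a total under 21 counts. No 2 libraries held identical values. Columns were matched to samples by title and grouped by the labelled stage.

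Differences between groups were fitted to the mature miRNAs with edgeR 4.0.16 under R 4.3.3 (limma 3.58.1). Its filterByExpr (at least 10 counts at the median library size, 15 in all) kept 850 of 1137, TMM factors were 0.637 to 1.67, and 1 quasi-likelihood model over all 20 libraries gave log2 fold changes with SE and Benjamini-Hochberg adjusted p-values over the 850, with a threshold of 0.05. The fits were also run on simulated counts in which some miRNAs were raised or lowered at random in 1 group. That check does not cover the scaling between tumours and skin. Arm ratios were tested by two-sided exact permutation (scipy 1.17.1). Base pairs were predicted with RNAfold 2.7.2. The alternatives were DESeq2 1.42.0 and its size factors, total counts, other filters, a replicate block, leaving out each library and the additions named with the results.

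The members and all lists (the Aatk locus, myelinating glia, neural, keratinocyte, striated and smooth muscle, endothelium, melanocyte, mesenchyme, leukocyte) were chosen with earlier results of these data known. miRNAs were named by rule: the arms, the locus and glia lists, sharers of a seed, the 5 most alike over all libraries and the 3 most alike within groups by Pearson correlation of log2 CPM (pseudocount 0.5), and the 2 most abundant members of each other list, of which those a result turns on are printed.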

Additional observations from a re-analysis of the deposited data

How the results depend on the processing

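Both arms stayed lower in tumours than in skin under every alternative run, but the size depended on scaling and filter. In papilloma against healthy skin, miR-338-3p and miR-338-5p changed by -1.6 and -1.49 with total counts, by -1.57 and -1.48 with only miRNAs of at least 50 CPM, and by -1.57 and -1.47 with factors from abundant miRNAs; the 3p change was -2.64 with no filter on low counts. In cSCC against healthy skin the 3p change was -2.85 with total counts, and the changes were -2.49 and -1.24 with either setting built on abundant miRNAs. Against hyperplastic skin those 2 settings gave 3p changes of -1.15 in papillomas and -2.07 in cSCC. In cSCC against papilloma the 3p arm gave -0.85 without the 5 most abundant miRNAs, -0.88 without a filter and -0.95 with all features, none past the threshold, and the 5p change was -0.07 with total counts (edgeR adjusted p = 0.923). miR-205-5p, a keratinocyte miRNA, was -0.69 in cSCC against healthy skin but 0.04 under both settings built on abundant miRNAs (adjusted p = 0.865 and 0.855). The cause of these shifts was not tested.

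Counts of calls moved too. With at least 50 CPM, 294 miRNAs were tested and 151, 184, 83 and 148 were called in papilloma and cSCC against healthy and against hyperplastic skin. With all small RNA features, 1522 were tested in place of 850 miRNAs, and 5 features were called in hyperplastic against healthy skin, 675 in cSCC against healthy and 639 in cSCC against hyperplastic skin. Without hyperplastic 7 and 8, which were picked for their high levels, the 3p change between the skin groups was -1.17, the number called there was 9, the 3p changes against hyperplastic skin were -1.14 and -2.07, and 133 and 229 miRNAs were called in papilloma and cSCC. With total counts, 409 miRNAs were higher and 74 lower in papilloma against healthy skin, and 32 higher and 77 lower in cSCC against papilloma (58 and 40 with TMM).

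Groups share replicate numbers, but same-numbered libraries did not deviate together (17 pairs, r from -0.149 to 0.197), and 3 of 19 correlated best with their own number. With the replicate block, 4 miRNAs were called in hyperplastic against healthy skin, 240 and 82 in papilloma against healthy and hyperplastic skin, and 190 in cSCC against hyperplastic skin, and the 3p change in cSCC against papilloma was -1.02 (edgeR adjusted p = 0.0483).

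Leaving out single libraries gave, for miR-338-3p, -0.89 to -0.31 between the skin groups, -2.6 to -2.11 and -3.49 to -3.01 in papilloma and cSCC against healthy skin, -2.16 to -1.44 and -3.06 to -2.34 against hyperplastic skin, and -0.95 to -0.76 in cSCC against papilloma (-1.04 to -0.79 with the same miRNAs). For miR-338-5p the ranges were -1.14 to -0.52, -2.66 to -2.08, -2.48 to -1.77, -1.91 to -1.13, -1.85 to -0.82 and -0.06 to 0.64 (-0.13 to 0.49 with the same miRNAs). The 5p change in cSCC against papilloma was below 0 in these fits only without cSCC 6. The difference in log2 ratio was -1.52 to -1.0 in cSCC against papilloma and -0.02 to 0.37 between the skin groups, below 0 without healthy 7. Between 55 and 90 miRNAs were called in cSCC against papilloma (55 without cSCC 4, 64 without papilloma 3), 0 to 2 between the skin groups (2 without healthy 4), 281 to 374 and 360 to 392 in papilloma and cSCC against healthy skin, and 224 to 340 and 346 to 400 against hyperplastic skin. Depth limits the 5p arm most, with 23 to 100 reads per tumour library.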
